A study of Rattus norvegicus with 105 samples.

Results

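The mitochondrial ribosomal protein genes studied here are the 65 rat genes, of 22954 probe sets tested, whose array probe set carried a single symbol starting with Mrpl or Mrps followed by a digit. Mrpl genes are named for the large subunit of the mitochondrial ribosome and Mrps genes for the small one. RefSeq holds 78 protein-coding rat genes with such symbols, and 13 of them are not among the 65. The genes mrpl9, mrpl11 and mrpl24 are written in lower case in the annotation and therefore fell outside the rule. The genes were followed in the gastrocnemius, a mixed calf muscle, of male Sprague-Dawley rats bought at about 30 days of age. Each rat carried 4 small metal pellets in this muscle, 2 in each hind limb, and the muscle was taken 1, 3, 6 or 12 months after surgery. The pellets were aluminum (Al), cobalt (Co), copper (Cu), depleted uranium (DU), iron (Fe), nickel (Ni), lead (Pb), tungsten (W) or tantalum (Ta). Tantalum was the implanted control, so surgery and a foreign body are shared by all groups, and no muscle without a pellet enters any comparison. There were 3 Clariom S arrays for each of 35 groups of metal and month, and nickel at 12 months was not analysed here. Each array was made from RNA pooled from 2 to 3 rats, so a p-value measures the spread between pools and not between single animals. Rats of a later month were also older, so time after surgery and age cannot be told apart.

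The mitochondrial ribosome makes the few proteins encoded in mitochondrial DNA, all of them subunits of the respiratory chain and ATP synthase, while its own proteins are encoded in the nucleus, made in the cytosol and imported. Some of these proteins descend from those of the bacterial ribosome and others are found in mitochondria alone. In skeletal muscle the particle supplies the membrane complexes that oxidative fibres depend on. NRF1, the ETS factor GABP and YY1 are known regulators of nuclear genes for mitochondrial proteins.

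Promoters of 3 of the members that differed from tantalum in at least 1 comparison below are shown first, because they hold the letters of those 3 factors in different combinations. Each is 250 bases before and 50 bases after the annotated start, from RefSeq on assembly GRCr8, printed 5′ to 3′ on the strand of the gene. Mrps18b lies on the plus strand at chr20:2842756-2843055, Mrpl37 on the minus strand at chr5:127074918-127075217 and Mrpl36 on the minus strand at chr1:31795072-31795371. Capitals mark matches to NRF1 (GCGCANGCG), ETS (CCGGAAG) or YY1 (AANATGGCG), searched on both strands.
Mrps18b: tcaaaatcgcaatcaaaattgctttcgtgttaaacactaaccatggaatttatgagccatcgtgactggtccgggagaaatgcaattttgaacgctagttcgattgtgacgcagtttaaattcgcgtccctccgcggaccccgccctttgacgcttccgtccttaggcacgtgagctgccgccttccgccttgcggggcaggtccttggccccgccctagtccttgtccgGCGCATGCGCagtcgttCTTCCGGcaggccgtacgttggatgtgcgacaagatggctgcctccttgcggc
Mrpl37: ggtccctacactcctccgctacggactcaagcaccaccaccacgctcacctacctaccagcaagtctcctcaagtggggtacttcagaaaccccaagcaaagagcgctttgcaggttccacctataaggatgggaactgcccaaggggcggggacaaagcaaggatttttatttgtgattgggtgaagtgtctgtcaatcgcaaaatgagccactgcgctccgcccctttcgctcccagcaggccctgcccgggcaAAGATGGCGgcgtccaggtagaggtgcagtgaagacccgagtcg
Mrpl36: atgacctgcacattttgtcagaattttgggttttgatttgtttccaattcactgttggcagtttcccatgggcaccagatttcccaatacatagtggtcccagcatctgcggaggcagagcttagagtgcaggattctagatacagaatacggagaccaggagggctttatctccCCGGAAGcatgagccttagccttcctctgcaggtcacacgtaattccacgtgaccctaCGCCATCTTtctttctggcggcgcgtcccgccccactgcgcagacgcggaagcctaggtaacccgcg
In Mrps18b the first capitals are NRF1 letters, matched on both strands at overlapping positions, and the second are ETS letters on the opposite strand. Mrpl37 holds 1 YY1 match, just after its start. Mrpl36 holds ETS letters and, on the opposite strand, YY1 letters. Of the 65 members, 54 had a promoter in the table, and Mrpl38 had none. NRF1 letters were in 11 of the 54 (20.4%), against 8.26% of 19005 protein-coding genes. ETS letters were in 19 (35.2%), against 11.6%, and YY1 letters in 11 (20.4%), against 4.12%. At least 1 of the 3 was in 32 members (59.3%), against 20.6% of protein-coding genes. These shares describe letters in a window, not sites shown to be bound.

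All 65 genes lay above the median level of all probe sets, which was 6.46 on the log2 scale of the arrays, and none was in the dimmest 30%. A level here is a log2 intensity, averaged over all arrays unless a group is named. It does not rank the amounts of different genes, since probe sets differ in brightness. The median member was at 8.39. The highest levels were those of Mrpl42 (11.66) and Mrpl35 (10.28) of the large subunit, Mrps15 of the small subunit (10.25) and Mrpl54 of the large subunit (10.12). The lowest were all of the small subunit: Mrps26 (6.75), Mrps34 (6.93), Mrps12 (6.96), whose bacterial counterpart sits at the decoding centre, and Mrps16 (7.05). RefSeq lists 40 pseudogenes with symbols of this kind, including those of genes outside the 65. Of the members, 20 have a pseudogene under their name, Mrpl42, Mrpl54, Mrps16, Mrps18b and Mrpl37 among them. Signal from such copies on these probe sets was not tested.

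The group means of the family spanned less than those of all probe sets. The range of a member's 35 group means had a median of 0.47, against 0.60 over all probe sets. Arrays of a group also spread less, with a median SD of 0.13 against 0.16, so the ranges do not show a smaller response. Mrpl21 had the smallest range, 0.26, followed by Mrpl35 and Mrps7, both at 0.33. Mrpl38, a large-subunit protein with no bacterial counterpart, had the widest range, 1.04, and was the 1 member above 1. Next came Mrps18b (0.88), one of the paralogs of the bacterial S18 protein, and Mrpl12 (0.79), the counterpart of the bacterial stalk protein that recruits translation factors. For 2080 pairs of members the median correlation over the 35 group means was 0.27, and 0.37 after each month's mean was taken out. The same medians were 0.60 and 0.57 among 71 respiratory chain and ATP synthase subunits, and 0.54 and 0.38 among 53 cytosolic ribosomal proteins. Group means of a list share arrays, so these correlations are a description.

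**Figure D1:**
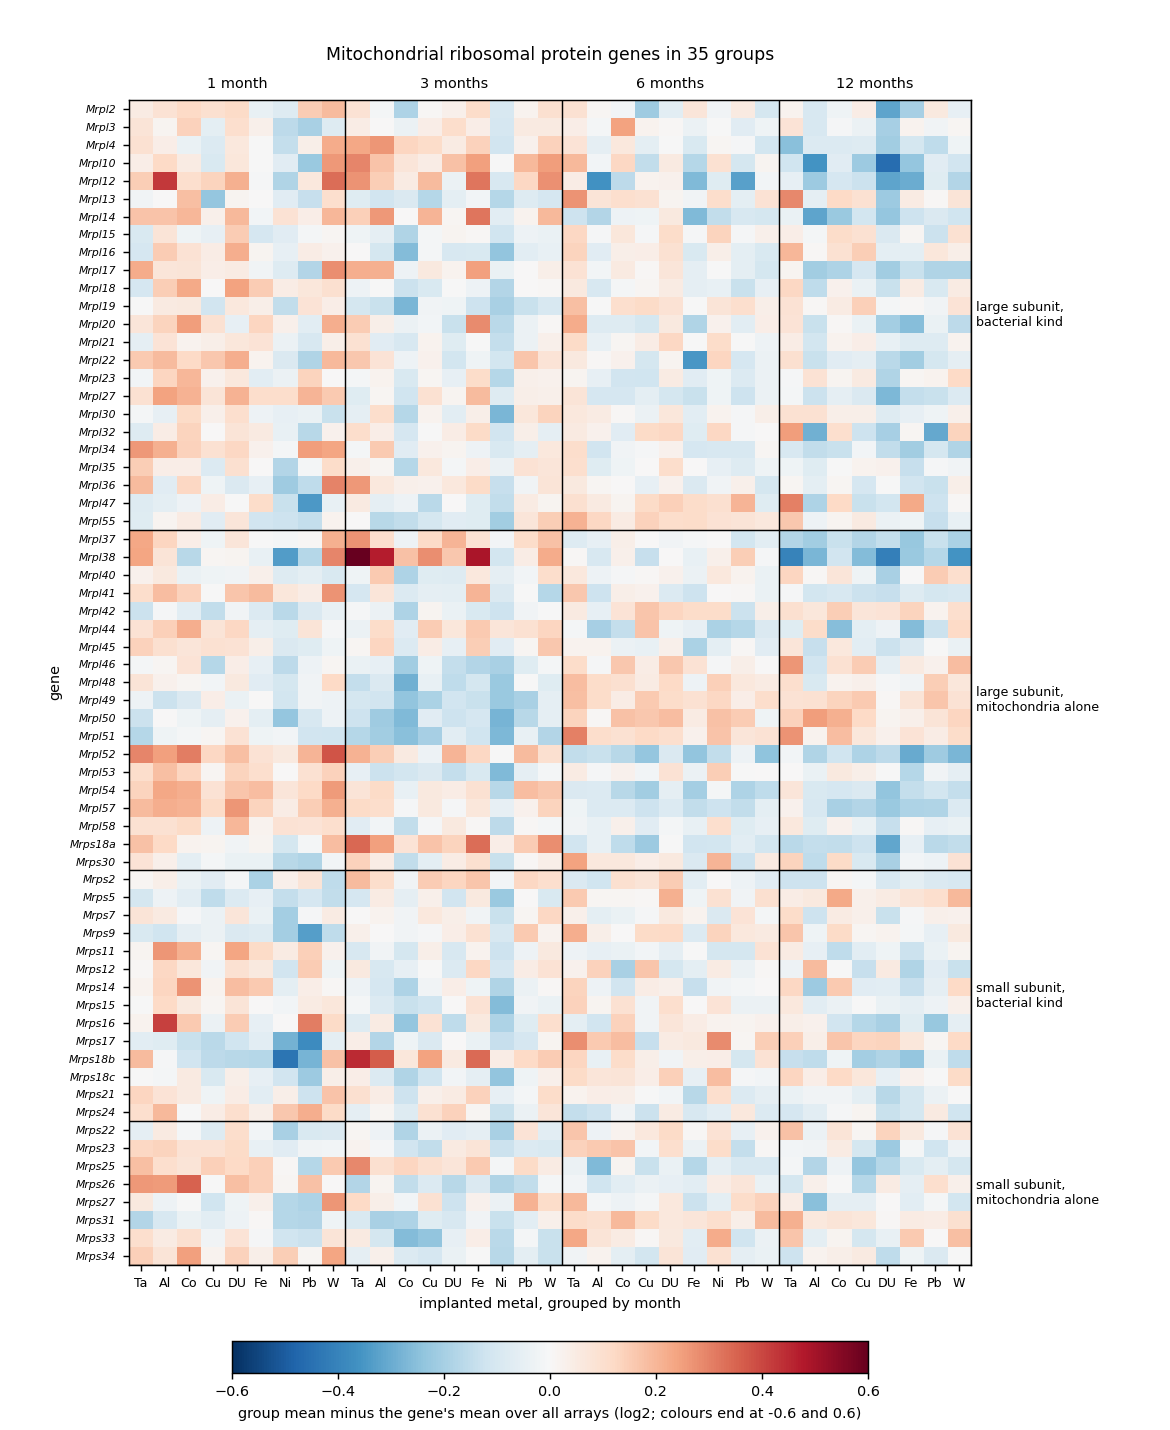
Group mean of each of the 65 genes minus that gene's mean over all arrays (log2), with genes in rows ordered by subunit and kind and the 35 metal groups in columns ordered by month. Mrpl38 and Mrps18b stand out as rows, high in tantalum, aluminum and iron at 3 months and low in nickel at 1 month, while most other rows stay pale.

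Which members differed from tantalum at the same month was asked in 31 comparisons, and few did. Of 2015 tests of a member, 8 passed (0.397%), all of them lower in the metal, and over all probe sets 0.443% of tests passed. The 8 concerned 3 genes: Mrpl38, Mrps18b and Mrpl37. They fell in nickel at 1 and 3 months, cobalt at 3 months and lead at 1 month, which are also the comparisons with many calls over all probe sets. No member passed in copper, iron, aluminum, tungsten or depleted uranium. At 6 months 0 of 520 member tests passed in limma, and over all probe sets 0 passed. An unadjusted p below 0.05 was found for 22 (4.23%, all probe sets 6.58%). At 12 months 0 of 455 passed, and over all probe sets 23 tests did. An unadjusted p below 0.05 was found for 27 (5.93%, all probe sets 6.56%). Calls were thus rare over all probe sets too, so the 0 counts do not describe the family. At these months arrays of the same replicate number deviated together in most metals. With the number as a block 0 member tests passed again, and over all probe sets 4 passed at 6 months and 112 at 12 months. In that fit 71 of 520 (13.7%, all probe sets 8.97%) and 79 of 455 (17.4%, all probe sets 9.02%) had an unadjusted p below 0.05. In the same 31 comparisons, 5.76% of member tests and 7.73% of all tests had an unadjusted p below 0.05.

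The median member lay below tantalum in 25 of the 31 comparisons, between -0.16 (depleted uranium at 12 months) and 0.04 (cobalt at 1 month). All metals of a month share the same 3 tantalum arrays, so these are not 25 separate observations. Against the mean of the other metals of the month, a reference added after the data were seen, the median lay below 0 in 14 of 31. Among the comparisons below both references were nickel at 1 month (-0.11 and -0.11), cobalt at 3 months (-0.14 and -0.10), depleted uranium at 12 months (-0.16 and -0.08) and nickel at 3 months. Over all probe sets the medians in cobalt at 3 months were -0.05 and -0.06, so part of its shift was shared by all probe sets. They were 0.00 and -0.01 in nickel at 1 month and 0.00 and 0.00 in depleted uranium at 12 months. In nickel at 3 months 63 of 65 members lay below tantalum, with a median of -0.16 against -0.02 over all probe sets, and all 65 lay below the other metals, with a median of -0.12 against -0.03 over all probe sets. The family median of the 3 nickel arrays at 3 months was 8.16, 8.25 and 8.30, and that of the tantalum arrays 8.50, 8.34 and 8.42. The arrays of both groups did not overlap in this median.

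**Figure D2:**
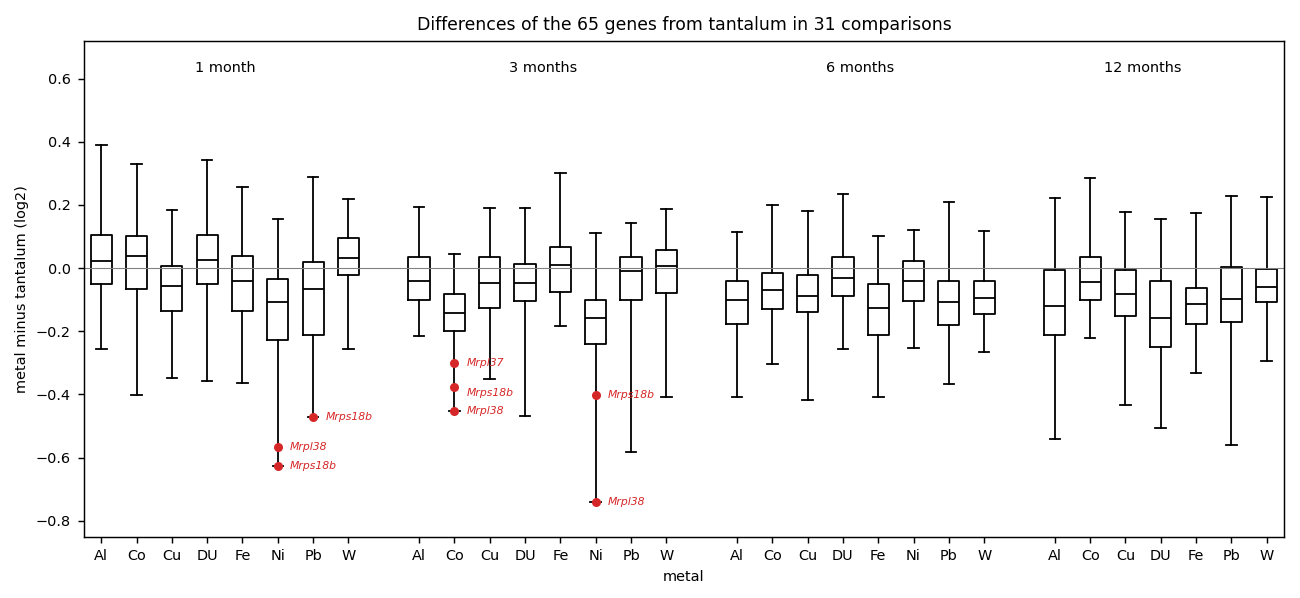
Difference of each of the 65 genes from tantalum of the same month (log2), 1 box for each of 31 comparisons, with the box at the quartiles, the line at the median and whiskers to the lowest and highest gene. Red points with names are the 8 that passed the test, all below 0, at 1 and 3 months.

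Mrpl38 differed most from tantalum in nickel at 3 months. Lead at 3 months came next, with a difference of -0.58 ± 0.13 that did not pass (adjusted p = 0.0703, limma). Nickel at 1 month followed. At 3 months the level of Mrpl38 was 7.64, 7.78 and 8.03 in the nickel arrays and 8.46, 8.62 and 8.59 in the tantalum arrays. Every nickel array lay below every tantalum array. Here and below, a lack of overlap adds no support, since genes were picked with results of the same arrays known. The difference was -0.74 ± 0.13 (SE; adjusted p = 2.22e-05, limma), in a comparison where 3.42% of all probe sets passed. It passed under all 20 alternatives tried, with values from -0.85 to -0.38. At 1 month the nickel arrays were at 7.83, 7.51 and 7.44 and the tantalum arrays at 8.22, 8.24 and 8.02, again without overlap. That difference was -0.57 ± 0.13 (adjusted p = 0.00804), and 0.797% of all probe sets passed. When nickel array 2 or 3, or tantalum array 1 or 2, was left out, it was between -0.54 and -0.49 and no longer passed (adjusted p from 0.0662 to 0.172). At 6 months the nickel arrays (7.98, 7.99 and 7.91) lay within the range of the tantalum arrays (8.15, 7.84 and 7.81), and the difference was 0.02 ± 0.13. Over months 1, 3 and 6, Mrpl38 in nickel was -0.43 ± 0.07 from tantalum (adjusted p = 3.96e-05).

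Mrpl38 was also high in the control. Tantalum at 3 months had the highest Mrpl38 mean of all 35 groups, 8.56 ± 0.08 (SD, n = 3), and all 8 metals lay below it, with differences from -0.14 in iron to -0.74 in nickel. Iron (8.42 ± 0.17) and aluminum (8.40 ± 0.15) at 3 months came next and were within their spread of it. Nickel was the lowest of the 9 groups at 1 month and at 3 months, while the lowest means of all were in depleted uranium (7.52 ± 0.18) and tantalum (7.53 ± 0.07) at 12 months. Against the other metals at 3 months, Mrpl38 in nickel was -0.38 ± 0.10 (adjusted p = 0.0069), and against the other metals over its 3 months -0.22 ± 0.06 (adjusted p = 0.00579). In cobalt at 3 months the Mrpl38 arrays were at 7.98, 8.30 and 8.02, all below those of tantalum. The difference was -0.45 ± 0.13 (adjusted p = 0.014), with 5.46% of all probe sets passing. It no longer passed when cobalt array 1 or 3, or tantalum array 2 or 3, was left out (-0.44 to -0.39, adjusted p from 0.0623 to 0.11). Counting also the settings without every array of a replicate number, the call was lost in 6 of 9 (adjusted p up to 0.33).

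Mrps18b, a small-subunit protein, was lower in nickel, lead and cobalt. Its arrays at 1 month were at 8.15, 8.19 and 7.95 in nickel, 8.35, 8.10 and 8.32 in lead and 8.73, 8.91 and 8.54 in tantalum. All nickel and all lead arrays lay below all tantalum arrays. The difference was -0.63 ± 0.11 in nickel (adjusted p = 0.00011) and -0.47 ± 0.11 in lead (adjusted p = 0.00894), where 3.02% of all probe sets passed. The nickel value held when any 1 of the 6 arrays was left out, but not when every array numbered 2 was (-0.58, adjusted p = 0.102). The lead value did not pass without lead replicate 2 (-0.39) or tantalum replicate 2 (-0.38), and without every array numbered 2 it was -0.30 (adjusted p = 0.548). At 3 months Mrps18b was at 8.49, 8.62 and 8.63 in nickel, 8.70, 8.69 and 8.43 in cobalt and 8.86, 9.09 and 9.00 in tantalum, and neither metal overlapped tantalum. The difference was -0.40 ± 0.11 in nickel (adjusted p = 0.0157) and -0.38 ± 0.11 in cobalt (adjusted p = 0.0171). Leaving out nickel array 1 ended the nickel call, leaving out cobalt array 3 ended the cobalt call, and leaving out tantalum array 2 or 3 ended both (-0.39 to -0.29). Counting also the settings without every array of a replicate number, the nickel call was lost in 6 of 9 (adjusted p up to 0.233). The cobalt call was lost in 5 of 9 (adjusted p up to 0.431). As with Mrpl38, tantalum at 3 months was the highest of the 35 groups (8.98 ± 0.12), and all 8 metals lay below it at 1, 3 and 6 months.

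**Figure D3:**
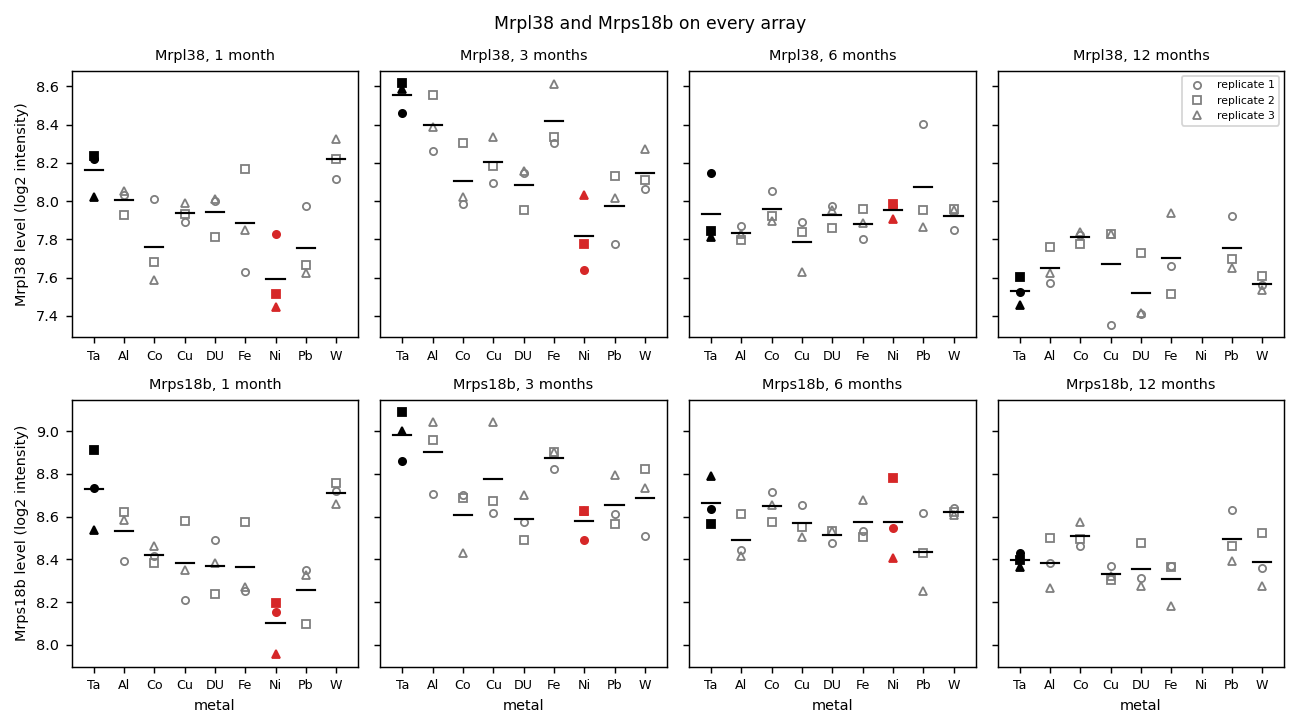
Level of Mrpl38 (top) and Mrps18b (bottom) on every array (log2 intensity) by metal and month, with marks shaped by replicate number, tantalum in black, nickel in red, and a line at each group mean. Nickel lies below tantalum at 1 and 3 months and among the other groups at 6 months, and tantalum is the highest group at 3 months.

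Mrpl37 and Mrpl36, both of the large subunit, each passed in 1 comparison. Mrpl37 at 3 months was at 8.91, 8.92 and 9.02 in cobalt and 9.25, 9.23 and 9.28 in tantalum, without overlap, a difference of -0.30 ± 0.09 (adjusted p = 0.025). It did not pass when cobalt array 1 or 2, or any 1 tantalum array, was left out (-0.31 to -0.28). Mrpl36, the counterpart of a small zinc-binding bacterial protein, was at 7.06, 6.81 and 6.90 in nickel at 1 month, 7.03, 6.91 and 7.05 at 3 months and 6.75, 7.12 and 7.47 at 6 months. Tantalum was at 7.31, 7.27 and 7.39, then 7.43, 7.41 and 7.34, then 7.12, 7.24 and 7.22. The groups were apart at 1 and 3 months and overlapped at 6 months. Over the 3 months the difference was -0.29 ± 0.09 (adjusted p = 0.0451), and it did not pass without nickel replicate 1 or 2 or any 1 tantalum replicate (-0.30 to -0.26).

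Over the 8 metals' means across months, 4 of 520 member tests passed, all lower, and 0.545% of all tests did. In nickel these were Mrpl38, Mrpl36 and Mrps18b (-0.37 ± 0.06, adjusted p = 2.45e-05), where 2.83% of all probe sets passed. In lead it was Mrps18b (-0.23 ± 0.05, adjusted p = 0.0403), where 0.139% of all probe sets passed. The lead value did not pass without lead replicate 2 (-0.20) or any 1 tantalum replicate (-0.25 to -0.21), nor without the 3 arrays lowest in muscle fibre markers, described below (-0.21, adjusted p = 0.0604). Against the other metals instead of tantalum, Mrps18b in nickel was -0.33 ± 0.08 at 1 month (adjusted p = 0.0143) and -0.15 ± 0.05 over months (adjusted p = 0.0475). On that reference tungsten at 1 month was higher for Mrps18b (0.37 ± 0.08, adjusted p = 0.0128) and for Mrpl38 (0.38 ± 0.10, adjusted p = 0.0373). After Mrpl38 and Mrps18b, the third lowest member in nickel at 3 months was Mrpl36 (-0.40 ± 0.15), which did not pass (adjusted p = 0.156). The highest there were Mrpl44 (0.11 ± 0.15), Mrpl41 (0.01 ± 0.16) and Mrpl27 (0.00 ± 0.17), none of which passed.

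Other cell types differed between some of the same groups, and because whole muscle was profiled, a smaller share of fibres and less RNA per fibre cannot be told apart. In nickel at 3 months 7 of 8 macrophage markers passed as higher (list median 0.93) and 4 of 6 fibroblast markers (0.86), while 0 of 7 muscle fibre markers passed. The summed fibre markers were 74979 to 79886 in nickel and 79771 to 81410 in tantalum, in linear intensity units. In cobalt at 3 months 8 of 8 macrophage and 6 of 6 T and NK cell markers were higher (medians 1.64 and 2.00). In nickel and lead at 1 month no marker of the 11 cell type lists passed. The summed macrophage markers at 1 month were 1563 to 2197 in nickel and 1033 to 1289 in lead, against 1069 to 1794 in tantalum. Their part in the differences of members was not tested. The 3 arrays with the lowest summed fibre markers were all at 6 months: aluminum replicate 1 (49336), lead replicate 3 (57657) and cobalt replicate 2 (59698). The other arrays ran from 59894 to 82580, with a median of 79232. Without these 3 arrays, an alternative added after the data were seen, 0 of 520 member tests against tantalum at 6 months passed in limma and 23 had an unadjusted p below 0.05. The median member in aluminum at 6 months was then -0.03 from tantalum, against -0.10 with all arrays.

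Whether a difference from tantalum changed between months was tested directly, and 1 member passed. Mrpl38 did so in cobalt (adjusted p = 0.00493), nickel (adjusted p = 0.0175) and lead (adjusted p = 0.0142; limma's moderated F test), where 4.18%, 1.22% and 0.152% of all probe sets passed, and 0.699% over all 8 metals. With every array numbered 2 or every array numbered 3 left out, none of these 3 tests passed in limma (adjusted p from 0.126 to 0.947), and without number 1 the lead test did not (adjusted p = 0.132). In cobalt its difference from tantalum was -0.40, -0.45, 0.02 and 0.28 at 1, 3, 6 and 12 months. In lead it was -0.41, -0.58, 0.14 and 0.23. These 3 metals share the tantalum arrays, in which Mrpl38 went from 8.16 ± 0.12 at 1 month to 8.56 ± 0.08, 7.93 ± 0.19 and 7.53 ± 0.07.

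Changes over time were tested on more arrays, and both members and all probe sets passed more often than against tantalum. Over the 8 metals with all months, tantalum included, 24 arrays of a month were set against 24 at 1 month. The fit treats these arrays as independent, although those of a replicate number deviated together at 6 and 12 months. The p-values over time at those months leave this shared part out and can be too small. At 3 months 6 members were higher and 11 lower, against 9.81% and 10.3% of all probe sets. At 6 months 10 were higher and 19 lower (all probe sets: 17.2% and 19.6%). Without the 3 arrays low in fibre markers it was 10 and 17 (all probe sets: 17.9% and 17.8%). At 12 months 8 were higher and 25 lower (23.4% and 20.7%, or 44.1% in either direction). More members were lower than higher at each month, a balance that depended on which arrays were used. The median member at 12 months was -0.08 from 1 month.

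The arrays carrying replicate number 1 at 6 and 12 months were low for the family as a whole. At 12 months their family median ran from 8.10 to 8.41 (median 8.25), against 8.36 to 8.50 (8.46) for number 2 and 8.27 to 8.40 (8.36) for number 3. At 1 month the same medians were 8.38, 8.36 and 8.41. Within number 1, 54 of 65 members lay lower at 12 months than at 1 month, with a median difference of -0.23. Within number 2 it was 31 of 65 (0.01), and within number 3 it was 33 of 65 (0.00). Respiratory chain subunits had the same order, with medians of -0.36, -0.10 and -0.12, while the median of all probe sets was 0.03, 0.01 and 0.01. At 6 months the family's medians within the 3 numbers were -0.20, 0.05 and 0.00. With number 1 left out, 16 members were higher and 13 lower at 12 months (all probe sets: 16.7% and 16.6%). Without number 2 it was 6 and 28 (20.0% and 18.3%), and without number 3 it was 3 and 23 (19.0% and 17.0%). The labels give the number and no batch, and what the arrays of a number share was not tested.

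**Figure D4:**
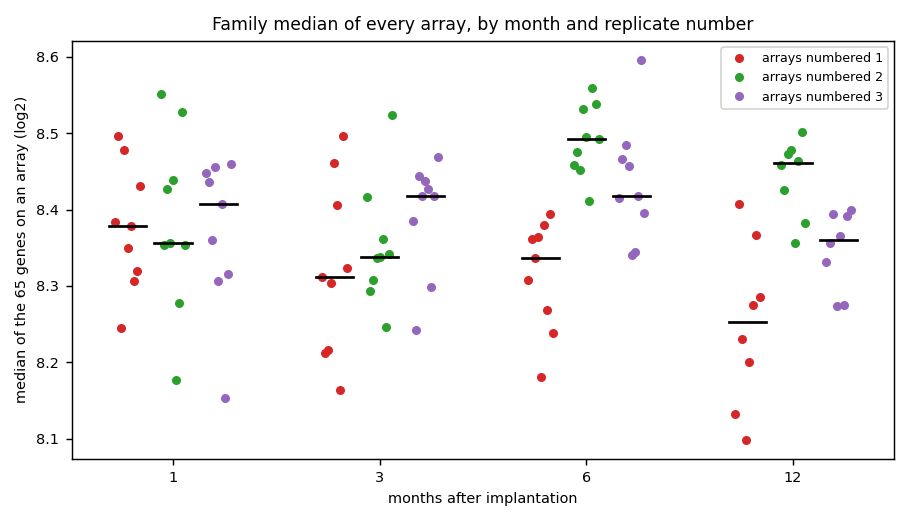
Median log2 level of the 65 genes on every array, by month and replicate number, with a line at the median of each set of 8 or 9 arrays. At 6 and 12 months the median of the arrays numbered 1 is the lowest and that of number 2 the highest, with single arrays of different numbers overlapping, while at 1 month the 3 medians lie close together.

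For 15 of the 33 members called at 12 months, the call held in the same direction whichever number was left out. This is 23.1% of the family, and 22.4% of all probe sets held in that way. Of the 12 lower members, Mrpl12, Mrpl14, Mrpl22 and Mrpl34 were large-subunit proteins of the bacterial kind. Mrpl37, Mrpl38, Mrpl52, Mrpl54, Mrpl57 and Mrps18a were counted as large-subunit proteins of mitochondria alone, although Mrps18a is a bacterial S18 paralog. Mrps16 and Mrps25 were of the small subunit, and 11.6% of all probe sets were lower in that way. The 3 higher members were Mrpl42, Mrpl51 and Mrps5, and 10.8% of all probe sets were higher. By the same measure 33 of 71 respiratory chain subunits were lower and 2 higher, and 12 of 53 cytosolic ribosomal proteins were lower and 2 higher.

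Large-subunit proteins of mitochondria alone, with Mrps18a counted among them, made up 8 of these 15 and 19 of the 65 members. Mrpl37 had the smallest adjusted p of the family at 12 months. It went from 9.06 ± 0.13 (SD, n = 24) at 1 month to 8.81 ± 0.08, a difference of -0.26 ± 0.03 (adjusted p = 1.32e-10), lower in 8 of 8 metals, with differences of -0.29, -0.26 and -0.22 within the 3 replicate numbers. Mrpl52 went from 7.86 ± 0.16 to 7.45 ± 0.25 (-0.41 ± 0.06, adjusted p = 2.1e-07), also in 8 of 8 metals, but with differences of -0.61, -0.04 and -0.58 within the numbers. Mrpl57 fell by 0.33 ± 0.05 in 8 of 8 metals, with differences of -0.50, -0.12 and -0.36 within the numbers. Mrpl38 first rose, by 0.28 ± 0.04 at 3 months (higher in 7 of 8 metals), and between 1 and 12 months it fell by 0.31 ± 0.04 (6 of 8). Mrpl42 and Mrpl51 rose by 0.16 ± 0.03 (8 of 8 metals) and 0.15 ± 0.03 (7 of 8). In this class 4 of 19 members were higher and 9 lower, beside 23.4% and 20.7% of all probe sets.

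Among large-subunit proteins of the bacterial kind, 0 of 24 were higher at 12 months in limma and 11 were lower, beside 23.4% and 20.7% of all probe sets, and 4 of the 11 were lower whichever replicate number was left out. Mrpl12 fell from 8.34 ± 0.20 to 7.99 ± 0.21 (-0.35 ± 0.06, adjusted p = 7.32e-07). Mrpl34 fell by 0.30 ± 0.05, and Mrpl14, which the assembly factor Malsu1 binds, fell by 0.28 ± 0.05. All 3 were lower in 8 of 8 metals. Within the replicate numbers Mrpl34 was at -0.50, -0.08 and -0.31. In the small subunit, 3 of 14 proteins of the bacterial kind were higher and 3 lower, and 1 and 2 of 8 of the mitochondrial kind. Mrps5 rose by 0.19 ± 0.03 in 8 of 8 metals (0.11, 0.16 and 0.29 within the numbers), and Mrps26 fell by 0.27 ± 0.05 at 3 months, in 8 of 8 metals.

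**Figure D5:**
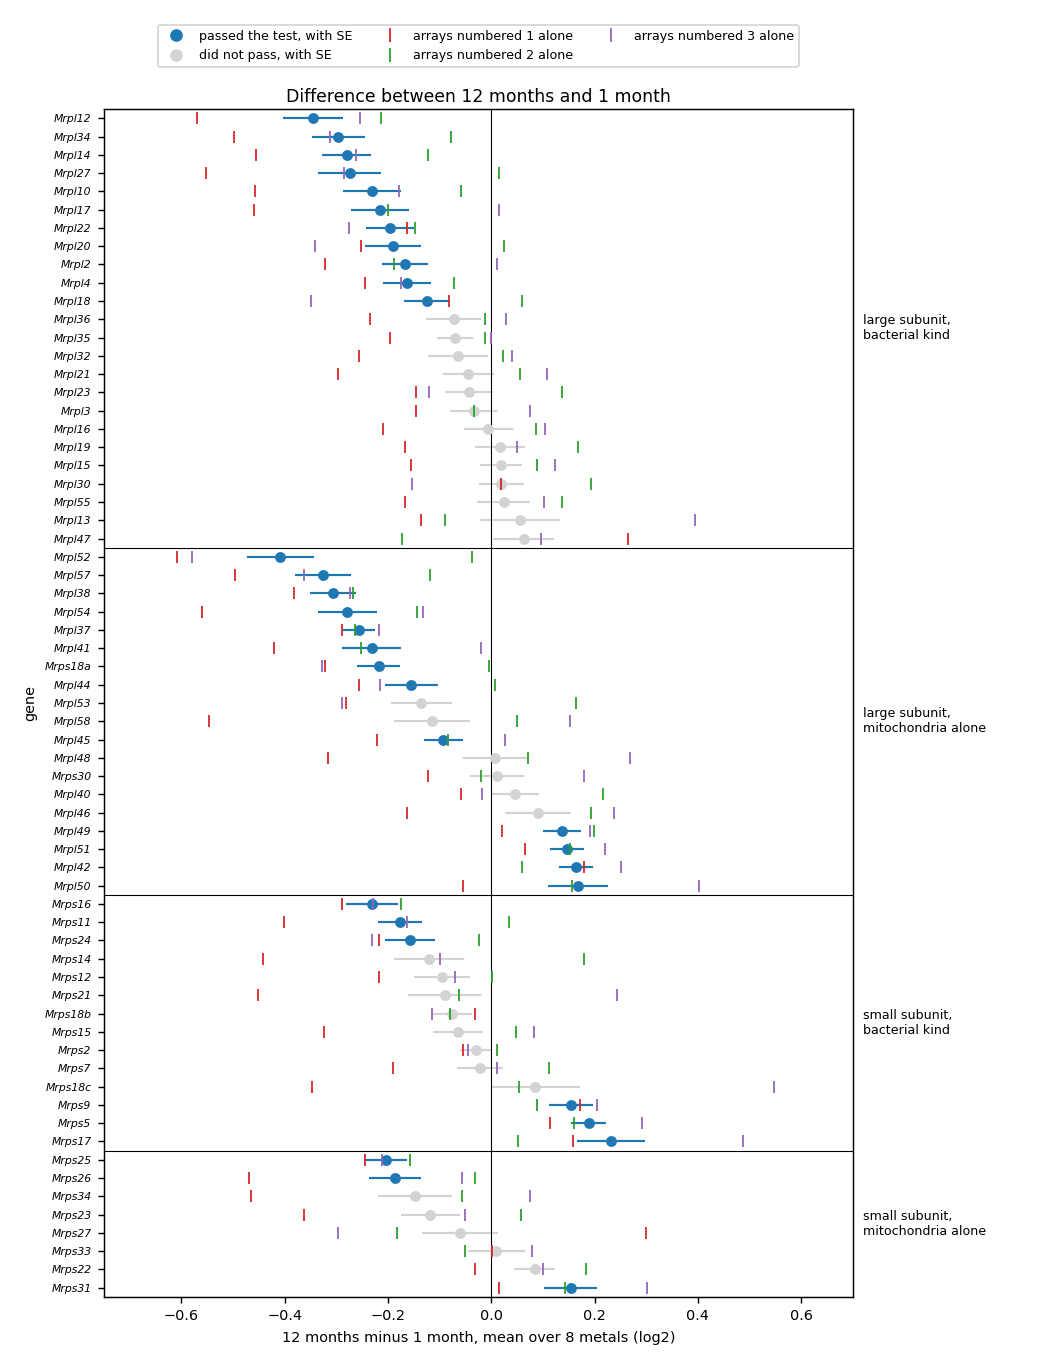
Difference between 12 months and 1 month (log2, mean over 8 metals, bars 1 SE) for each of the 65 genes by subunit and kind, blue where the test passed, with ticks for the same difference within the arrays numbered 1, 2 or 3. The ticks of number 1 lie left of the others for most genes, while those of Mrpl37, Mrpl38 and Mrps25 lie close together.

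At 3 months the 2 members with the smallest adjusted p were the pair that differed from tantalum. Mrps18b rose by 0.29 ± 0.04 (adjusted p = 1.47e-08) in 7 of 8 metals and within each replicate number (0.23, 0.25 and 0.38), and Mrpl38 by 0.28 (0.15, 0.32 and 0.37). Mrps2, a small-subunit protein of the bacterial kind, rose by 0.16 ± 0.03 in 8 of 8 metals. Across the 35 group means Mrpl38 followed Mrpl4 (r = 0.87), Mrps18b (0.86) and Mrps18a (0.85) most closely and Mrpl51 (-0.56) least, as a description over groups that share metals and months. Of the S18 paralogs, Mrps18a sits in the large subunit despite its name. It rose by 0.16 ± 0.04 at 3 months and fell by 0.22 ± 0.04 at 12 months, the 3-month call being lost without number 3. Mrps18b was -0.08 ± 0.04 at 12 months and Mrps18c 0.08 ± 0.09, neither of which passed. Mrps30, another large-subunit protein under a small-subunit name, was at 0.01 ± 0.05 and did not pass either.

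In tantalum alone 1 member was higher at 12 months than at 1 month and 3 were lower, against 3.46% and 4.38% of all probe sets. Mrpl51 went from 8.95, 9.11 and 8.86 to 9.45, 9.36 and 9.43 (0.44 ± 0.09, adjusted p = 0.000672). Mrpl38 went from 8.22, 8.24 and 8.02 to 7.53, 7.60 and 7.46 (-0.63 ± 0.13, adjusted p = 0.000356). Mrpl37 went from 9.20, 9.20 and 9.24 to 8.81, 8.80 and 8.81 (-0.41 ± 0.09, adjusted p = 0.00123). Mrps18b went from 8.73, 8.91 and 8.54 to 8.43, 8.40 and 8.36 (-0.33 ± 0.11, adjusted p = 0.0388). None of these 4 overlapped between the months, but they were picked by the test on the same arrays, so this adds no support. The Mrps18b call ended without tantalum replicate 1 or 2 at 1 month or any 1 array at 12 months (-0.35 to -0.24), and the Mrpl51 call without both tantalum arrays numbered 3 (0.38, adjusted p = 0.0583). In tantalum alone 4 of 6 fibroblast, 3 of 5 endothelial, 0 of 6 slow fibre and 1 of 8 macrophage markers were lower at 12 months. Over the 8 metals it was 6 of 6, 5 of 5, 6 of 6 and 6 of 8 (medians -1.39, -0.50, -0.46 and -0.39), beside 20.7% of all probe sets. The part of these cell types in the changes over time was not tested.

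Few other genes of mitochondrial translation passed against tantalum. Of 2232 tests of the 72 measured genes in 6 lists, 1 passed, against 0.443% of all tests, and 150 (6.72%) had an unadjusted p below 0.05, against 7.73%. It was Mrm2, which methylates the large mitochondrial rRNA, in cobalt at 3 months (-0.44 ± 0.14, adjusted p = 0.0362). None of 71 respiratory chain subunits passed in 2201 tests in limma (76, or 3.45%, with an unadjusted p below 0.05), and 7 of 1643 tests of cytosolic ribosomal proteins did (0.426%; 61, or 3.71%, with an unadjusted p below 0.05). At 12 months 29 of the 72 passed (40.3%, against 44.1% of all probe sets), and 10 of them whichever replicate number was left out (13.9%, against 22.4%). Gabpa, the DNA-binding ETS subunit of GABP, rose by 0.48 ± 0.05 (adjusted p = 9.21e-12). Of mitochondrial transcription and RNA handling 5 of 12 rose and 3 fell, among them Tfb2m, an initiation factor (0.25 ± 0.04), Trmt10c of mitochondrial RNase P (0.37 ± 0.06), the polymerase Polrmt (0.24 ± 0.04) and the helicase Supv3l1 (-0.40 ± 0.06). Of assembly factors 6 of 22 rose and 2 fell, with the GTPase Gtpbp10 at 0.30 ± 0.04 and the membrane insertase Oxa1l at -0.24 ± 0.04. Of translation factors 2 of 11 rose and 2 fell, led by the release factor Mtrf1l (0.25 ± 0.05). Of aminoacyl-tRNA synthetases 1 of 13 rose and Fars2 fell (-0.24 ± 0.05). Of mitoribosomal proteins with other names Ptcd3 rose (0.12 ± 0.05) and Dap3 fell (-0.14 ± 0.04), and both calls were lost without replicate number 3, that of Ptcd3 also without number 2 (adjusted p = 0.0638). Of 9 regulators 2 rose and 3 fell, Ppargc1a by 0.27 ± 0.08, a call lost without number 2 (adjusted p = 0.0521). Nrf1 was at -0.13 ± 0.04, a call lost without number 1. Gabpb1, the partner of Gabpa in GABP, was at -0.10 ± 0.04, lost without any 1 number. Yy1 was at 0.13 ± 0.05, lost without number 3.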

How the data were processed

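RNA pools of rat gastrocnemius, 3 for each of 35 groups, were measured on Clariom S arrays. The deposited values are log2 intensities per probe set, made by the authors with RMA in oligo under R 4.0.1, per the submitters' processing notes. RMA includes a quantile normalization over the arrays run together, so a shift shared by all genes would be largely removed. Whether all arrays were run together is not given in the sources used here. Array medians were 6.36 to 6.54, no array's mean correlation with all others was below 0.970, and the number of arrays limits precision. Control probe sets (23) were left out and no filter on dim ones was set. Gene IDs were turned into symbols with RefSeq's GRCr8 gene table, which named 14855 probe sets with 1 symbol and left 8099 without one.

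All arrays entered 1 linear model with a mean for each group in limma 3.58.1 (R 4.3.3; 70 residual and 7.25 prior degrees of freedom). P-values are two-sided, adjusted by Benjamini-Hochberg over 22954 probe sets, with a threshold of 0.05. The tests were checked on simulated data with independent noise on each array. That check leaves out the deviation shared by arrays of a replicate number, so it cannot show how the tests over time behave under it. Differences are log2, ± SE; levels are ± SD.

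The members, lists, markers and motifs were chosen with earlier results of these data known. Named genes are Mrpl38, members that passed (at most 8 per comparison over time, by adjusted p), those with the highest and lowest levels, ranges and nickel differences at 3 months, Mrps30, the S18 paralogs, and up to 4 passing genes per companion list. Members whose calls held without each replicate number, Mrps26 and Gabpb1 were named after their values were seen.

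Arrays with the same replicate number as tantalum deviated together (correlation over 0.1 for each of 3 numbers) for all 8 metals at 6 months and for aluminum, cobalt, iron, lead and tungsten at 12 months, and for none at 1 or 3 months. There, a fit paired by number also called 0 members. Alternatives were this block, a dim filter, a second quantile normalization, median centring, an intensity trend, array weights, arrays of the same month, joint adjustment, other metals as the reference, the lower-case symbols, leaving out arrays of a number, and leaving out the 3 arrays lowest in muscle fibre markers.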

Additional observations from a re-analysis of the deposited data

Results flagged for a closer look

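The difference of Mrpl38 from tantalum changed between months by limma's moderated F test in cobalt (adjusted p = 0.00493), nickel (adjusted p = 0.0175) and lead (adjusted p = 0.0142). In all 3 the mean lay below tantalum at 1 and 3 months, while at 6 months the difference was 0.02 ± 0.13 in cobalt and nickel and 0.14 ± 0.13 in lead, none of which passed. The 3 tests share their tantalum arrays. Without the arrays numbered 1 the adjusted p was 0.00785 in cobalt, 0.0259 in nickel and 0.132 in lead. Without number 2 it was 0.126, 0.604 and 0.947, and without number 3 it was 0.409, 0.163 and 0.206.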

How the results depend on the processing

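Mrpl38 in nickel at 3 months and over months kept its direction and passed under every alternative run for these 2 results, from -0.85 to -0.65 and from -0.47 to -0.40 when arrays were left out. At 1 month it passed in 11 of 18 alternatives (adjusted p up to 0.451). Over 9 settings that left out arrays, Mrpl37 in cobalt at 3 months and Mrpl36 in nickel over months each lost the call in 8. Mrps18b lost it in 7 in lead over months, and in 8 in tantalum between 1 and 12 months. The count of members called at 12 months stayed between 26 and 34 of 65 when a replicate number was left out, against 33, although its direction split moved. For the 31 comparisons with tantalum by month (8 calls) other settings gave 22 with the replicate block, 14 with array weights, 5 with arrays of the same month alone, 5 with adjustment over all 31 together, 4 with the other metals as the reference and 1 to 7 without a replicate number. For the means over months (4 calls) they gave 19 with the replicate block, 2 after a second quantile normalization, 7 with array weights, 2 with the other metals as the reference and 2 without any replicate number. At 3 versus 1 month (17) the replicate block gave 26 and leaving out a number 7 to 11. At 6 versus 1 month (29) leaving out a number gave 16 to 30. In tantalum at 12 versus 1 month (4) the block gave 12 and leaving out a number 2 to 5. For changes between months (3) the replicate block gave 9, a second quantile normalization 6, median centring 5, array weights 5 and leaving out a number 0 to 2. All calls of the block by month were at 1 and 3 months (11 and 11), where the numbers do not pair the arrays, and the cause of these shifts was not tested. Without the block they were 3 and 5. Over all probe sets the block also raised the calls, from 1046 to 2610 at 1 month and from 2081 to 3072 at 3 months. The counts of this section stand without a share over all probe sets, so they describe the settings and not the family. After a second quantile normalization the median member lay below tantalum in 19 of 31 comparisons, against 25. Leaving out the 3 arrays lowest in fibre markers, an alternative added after the data were seen, moved no count of calls by over 1.5 times. Of 488 values of single named genes under an alternative, 411 stayed on their side of the threshold, 77 no longer passed and 0 reversed.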
